A study of Homo sapiens with 12 samples.

Results

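SGK1, SGK3, TSC22D1, TSC22D3, FKBP5 and NR3C1 are 6 genes of glucocorticoid and stress signalling. They were picked by name from the 24180 gene symbols of the count tables, by no cutoff on a measured value. Earlier results of these data were known when they were picked. All 6 symbols are in the tables. They were followed in 12 RNA-seq libraries of 143B, an established human osteosarcoma cell line of wild-type genotype per the labels. There are 3 libraries each of BSG, M-BSG, M-BSG-Hot and NC, the control. Borosilicate bioactive glass and magnetic hyperthermia stand in the series title. The sample titles tie M-BSG to the name 5-MNP-BSG, M-BSG-Hot to 5-MNP-BSG (+) and NC to a control, and give BSG no other name. One treatment text, naming 5-MNP-BSG and an alternating magnetic field (20A, 500H as written), stands on every sample, the controls included. Which material, dose, field or exposure time each group had is thus not spelled out. The medium was DMEM with 10% fetal bovine serum throughout, and the labels name no added steroid. Separate cultures are not stated for the libraries of a group, so p-values measure only the spread between these libraries, which may be technical.

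The glucocorticoid receptor, encoded by NR3C1, waits in the cytoplasm in a complex with HSP90 and its co-chaperones, and moves to the nucleus when it binds hormone. FKBP5 is a co-chaperone that lowers the receptor's affinity for hormone and is itself induced by the receptor, which closes a feedback loop, and TSC22D3, also called GILZ, is another classic induced gene whose protein restrains NF-kB and AP-1. SGK1 encodes a kinase related to AKT that is switched on at the RNA level by serum, glucocorticoids and cell stress, needs mTORC2 and PDPK1 for activity, and phosphorylates FOXO factors, NEDD4L and NDRG1. SGK3 is its relative at endosomes, and TSC22D1 is a leucine-zipper relative of TSC22D3 first found as a gene induced by TGF-beta.

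Upstream sequence is shown for the 2 members that differed between groups and for TSC22D3, the relative of TSC22D1. The windows are the 250 bases before an annotated start, from RefSeq on GRCh38.p14, 5′ to 3′ on the minus strand in each case. Windows were searched for 5 members, with 3 starts for SGK1, 5 for TSC22D1, 4 for TSC22D3, 2 for FKBP5 and 7 for NR3C1. SGK3 was left out of this search. Of each gene shown the window with the most motif matches was taken, the first of 2 tied windows for TSC22D1. Counts per gene cannot tell which start was used. The windows are chr6:134177862-134178111 for SGK1, chr13:44474342-44474591 for TSC22D1 and chrX:107717063-107717312 for TSC22D3. Capitals mark the motif letters that the next paragraph names.
SGK1: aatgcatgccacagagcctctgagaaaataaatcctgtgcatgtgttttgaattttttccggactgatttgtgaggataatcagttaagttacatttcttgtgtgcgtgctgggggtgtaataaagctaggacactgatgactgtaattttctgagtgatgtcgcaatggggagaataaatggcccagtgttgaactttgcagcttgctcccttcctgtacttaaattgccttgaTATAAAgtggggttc
TSC22D1: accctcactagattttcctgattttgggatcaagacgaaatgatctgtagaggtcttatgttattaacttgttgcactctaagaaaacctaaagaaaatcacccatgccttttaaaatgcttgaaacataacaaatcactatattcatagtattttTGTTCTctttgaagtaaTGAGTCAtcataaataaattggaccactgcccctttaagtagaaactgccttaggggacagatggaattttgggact
TSC22D3: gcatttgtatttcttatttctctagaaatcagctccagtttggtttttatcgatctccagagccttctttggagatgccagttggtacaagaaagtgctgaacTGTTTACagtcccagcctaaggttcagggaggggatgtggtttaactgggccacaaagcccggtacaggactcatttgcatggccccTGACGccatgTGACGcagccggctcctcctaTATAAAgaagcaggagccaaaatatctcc

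In the SGK1 window the TATA box, TATAAA, searched on the gene's strand, lies 15 to 10 bases before the start, and 6.8% of 35116 RefSeq promoter windows of the same length hold one. In the TSC22D1 window the single site of the glucocorticoid receptor, AGAACA, searched on both strands and found here as its reverse complement, lies 94 to 89 bases before the start, and 12.4% of all windows hold it. The AP-1 motif TGANTCA, searched on both strands, lies 77 to 71 bases before that start and is held by 6.57% of all windows. The FOXO motif GTAAACA, searched on both strands, lies in the TSC22D3 window as its reverse complement at 147 to 141 bases before the start, and 2.98% of windows hold it. The core of the cAMP response element, TGACG, lies there at 60 to 56 and 50 to 46 bases before the start, and 21.2% of all windows hold it on either strand. The core TGACG is also contained in the full element TGACGTCA, which 1.65% of windows hold. A TATAAA lies in the TSC22D3 window at 29 to 24 bases before the start. The full receptor element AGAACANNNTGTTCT, which contains the single site, was found in 0.00285% of all windows, and none of the members' windows, SGK3 left out, holds it. An element this rare would be absent from nearly any such set of windows, so its absence tells nothing about these genes. The heat shock motif GAANNTTC, held by 5.78% of windows, was not found in the members' windows either. A match describes letters only. The shares describe single windows, while each window shown was chosen among its gene's starts for its matches, so they do not measure how unusual a match is.

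Library totals were 34434993 to 38163152 counts, 15407 genes passed the filter on low counts, and a count of 3 in a library corresponds to 0.0786 to 0.0871 CPM, that is, counts relative to the library total. Levels are CPM adjusted by TMM factors, which correct for a few genes taking up much of a library. BSG 1, M-BSG 1 and M-BSG-Hot 3, below called the 3 libraries that stood apart, had the highest ribosomal protein share of their groups. Ribosomal protein genes took 11.3%, 9.95% and 9.86% of their counts, against 7.55% to 9.18% in the other 9 libraries. M-BSG-Hot 3 stood apart less clearly, as the shares in its group rose evenly, from 7.6% over 8.8% to 9.86%. Replicate chi-square per degree of freedom was 15.4 for M-BSG-Hot 1 and 2 and 17.8 for M-BSG-Hot 2 and 3. The tables hold mesenchymal markers at high levels (VIM 3482 to 4639 CPM, SPARC 321 to 392 CPM), lower COL1A1 (5.23 to 8.91 CPM) and RUNX2 (10.2 to 16.9 CPM), and THY1 at 0 in 11 libraries, while the summed endothelial markers reached at most 2.68 CPM. TWIST1, a mesenchymal transcription factor, was higher in BSG (16.4 CPM against 9.81 CPM in NC, log2 fold change 0.75, edgeR adjusted p = 0.000181) and in M-BSG (0.46, edgeR adjusted p = 0.00991, lost without NC 2 at 0.0613), and was the 1 gene of its list called against NC. It was lower in M-BSG-Hot than in BSG (-0.54, edgeR adjusted p = 0.0152), a call lost in 6 of 22 alternatives, those without BSG 1, BSG 2, BSG 3, M-BSG-Hot 2 or M-BSG-Hot 3 among them. The summed immune markers, mostly CD68, were 129 to 138 CPM in BSG, 125 to 153 CPM in M-BSG, 120.0 to 166 CPM in M-BSG-Hot and 134 to 153 CPM in NC. CD14, a monocyte marker, was higher in BSG (1.80 CPM against 0.539 CPM in NC, log2 fold change 1.74, edgeR adjusted p = 0.00124). In M-BSG it was at 1.13 CPM (1.06, edgeR adjusted p = 0.042), a call lost in 13 of 22 alternatives, those without any 1 library of M-BSG or NC, or without BSG 2, BSG 3 or M-BSG-Hot 2, among them. CD14 was lower in M-BSG-Hot, at 0.613 CPM, than in BSG (-1.55, edgeR adjusted p = 0.017), a call lost in 6 of 22 alternatives, those without BSG 1, BSG 2, BSG 3, M-BSG-Hot 1 or M-BSG-Hot 3 among them. The summed epithelial markers, mostly EPCAM, were 16.6 to 22.3 CPM in BSG, 14.5 to 18.2 CPM in M-BSG, 14.7 to 16.8 CPM in M-BSG-Hot and 13.9 to 15.45 CPM in NC, and the part of these markers in the results was not tested. In bulk RNA, fewer cells of a type and less RNA per cell cannot be told apart.

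SGK1 was higher in all 3 groups other than NC than in NC itself, and TSC22D1 was higher by a smaller amount in the same groups. TSC22D3, FKBP5 and NR3C1 passed edgeR's test in none of the 6 comparisons, and SGK3 was not detectable at this depth in most libraries. Of the 5 members tested, the count for BSG against NC was 2 higher and 0 lower, where 11.7% of all genes were called, 5.5% higher and 6.22% lower. In M-BSG against NC it was again 2 higher and 0 lower, with 6.35% of all genes called, 3.22% higher and 3.13% lower. In M-BSG-Hot against NC it was 2 higher and 0 lower, with 4.91% of all genes called, 1.4% higher and 3.51% lower. These 3 comparisons share the NC libraries. Called means an adjusted p under 0.05 by edgeR's quasi-likelihood test with Benjamini-Hochberg adjustment over all tested genes. Of all called genes 46.9% were higher in BSG, 50.7% in M-BSG and 28.4% in M-BSG-Hot, and with scaling by library size only these shares were 29.9%, 37.7% and 18.1%. Across the 4 groups 2 of the 5 members differed, SGK1 and TSC22D1, where 7.52% of all genes did.

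**Figure D1:**
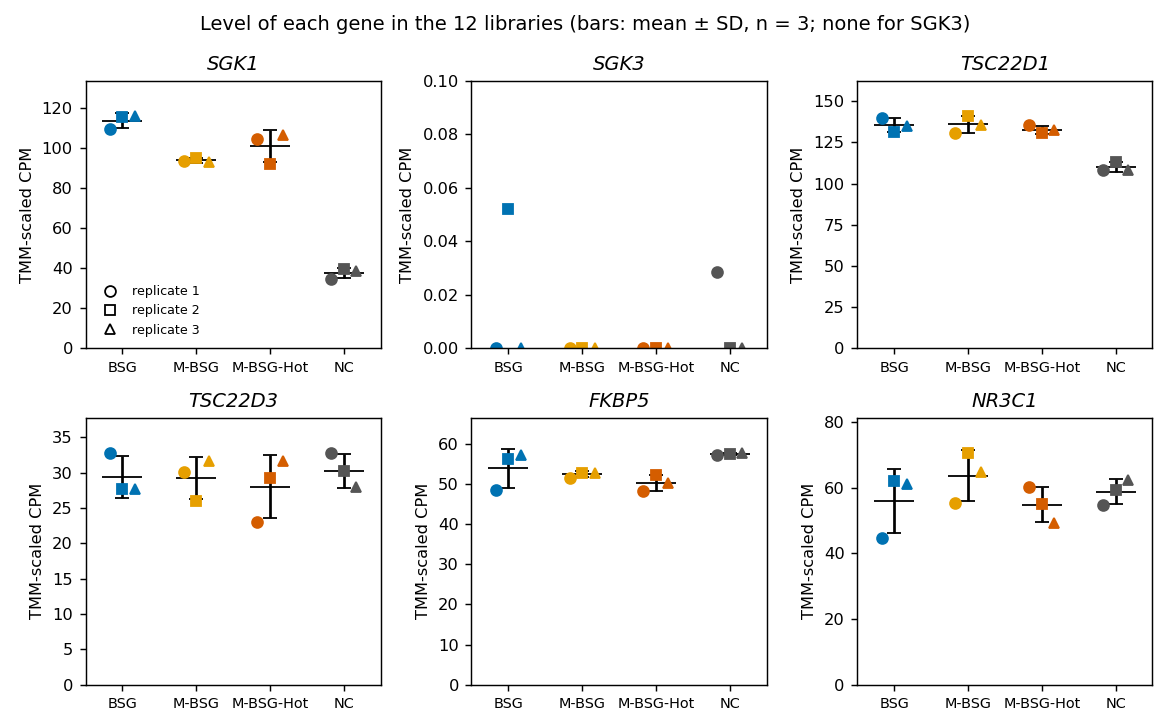
Level of each of the 6 genes in TMM-scaled CPM (y axis) in the libraries of BSG, M-BSG, M-BSG-Hot and NC (x axis), with marker shape for the replicate number and bars for mean ± SD of 3 libraries, left out for SGK3. SGK1 and TSC22D1 lie above every NC library in all 9 other libraries, and the points of TSC22D3 and NR3C1 overlap between groups. Of all genes 38.7% did not overlap with NC in BSG, 27.5% in M-BSG and 28% in M-BSG-Hot, in either direction.

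SGK1 stood at 109, 115 and 116 CPM in the BSG libraries. It stood at 93.2, 95.0 and 92.8 CPM in M-BSG and at 104, 91.9 and 106 CPM in M-BSG-Hot. In NC it stood at 34.4, 39.5 and 38.4 CPM. Every library of the 3 other groups lay above every NC library, by a wide gap. Without regard to the gap or direction, 38.7% of all genes did not overlap with NC in BSG, 27.5% in M-BSG and 28% in M-BSG-Hot. The means were 113 ± 3.72 CPM in BSG, 93.7 ± 1.16 CPM in M-BSG, 101 ± 7.77 CPM in M-BSG-Hot and 37.4 ± 2.67 CPM in NC (SD, n = 3 each).

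In BSG against NC the log2 fold change of SGK1 was 1.60 (SE 0.0798), a 3.03-fold difference, with an adjusted p of 2.25e-08 by edgeR's quasi-likelihood test. In M-BSG against NC it was 1.32 (SE 0.0794), 2.50-fold, with an edgeR adjusted p of 2.52e-07. In M-BSG-Hot against NC it was 1.43 (SE 0.0796), 2.69-fold, with an edgeR adjusted p of 1.35e-07. In the test of any difference among the 4 groups SGK1 ranked 10 of 15407 genes (edgeR adjusted p = 1.53e-07). The 3 calls against NC were also made in all 22 other settings tried, leaving out each library included.

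Ordered by mean level, SGK1 was highest in BSG, then M-BSG-Hot, then M-BSG, then NC. M-BSG against BSG gave a log2 fold change of -0.28 (95% interval -0.44 to -0.11), with all M-BSG libraries below all BSG libraries, a separation that 8.89% of all genes showed in that comparison. Its p was 0.0032 before adjustment and 0.508 after it (edgeR), so the difference was not called, in a comparison where 0.13% of all genes were. M-BSG-Hot against BSG gave -0.17 (95% interval -0.34 to -0.00), again without overlap, as for 16.7% of all genes, and with an edgeR adjusted p of 0.351 where 0.85% of genes were called and 0.753% called lower. M-BSG-Hot against M-BSG gave 0.11 (95% interval -0.06 to 0.27), with overlapping libraries and an edgeR adjusted p of 0.781, where 0.694% of genes were called and 0.597% called lower. In these 3 comparisons edgeR called 0 members, as did DESeq2 and limma, and at an unadjusted p under 0.05 edgeR gave 1 in M-BSG against BSG, 1 in M-BSG-Hot against BSG and 0 in M-BSG-Hot against M-BSG.

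**Figure D2:**
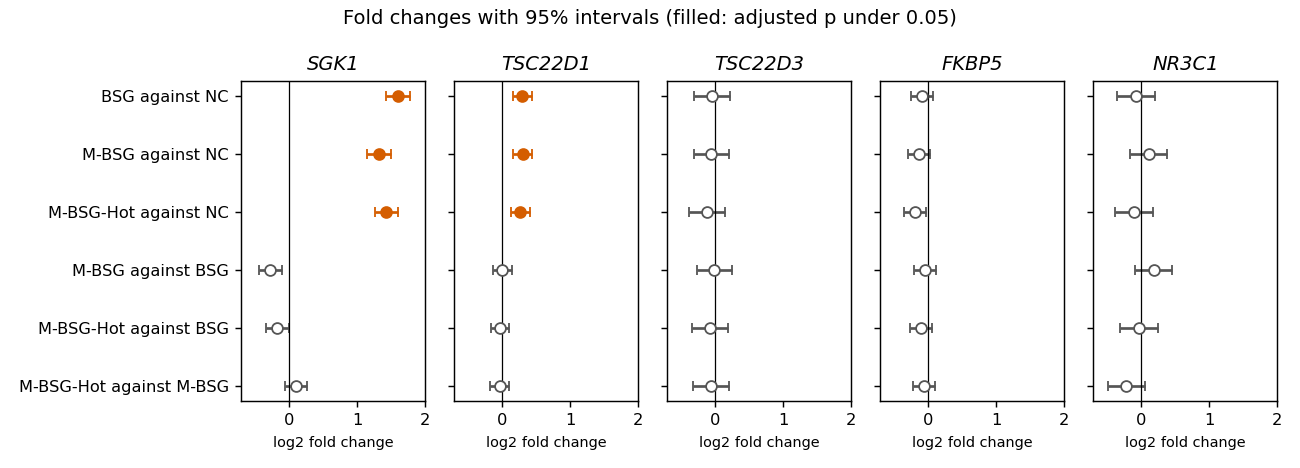
Log2 fold change (x axis) of each of the 5 tested members in the 6 comparisons (y axis), first group over second, with 95% intervals and filled points for an adjusted p under 0.05. SGK1 is filled against NC at 1.60, 1.32 and 1.43, TSC22D1 is filled near 0.30, and the remaining points are open.

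SGK3, the endosomal relative of SGK1, had 2 counts in BSG 2, 1 count in NC 1 and 0 counts in the other 10 libraries. It did not pass the filter and was not tested, and no fold is given because the groups lie at or under 3 counts a library. In RefSeq, SGK3 lies wholly within a second gene entry, C8orf44-SGK3, a read-through of 2 neighbouring genes. That entry had 1 count each in BSG 1, NC 1 and NC 3 and 0 counts in the other 9 libraries. The neighbour C8orf44 averaged 0.928 ± 0.131 CPM in BSG, 0.904 ± 0.212 CPM in M-BSG, 0.830 ± 0.396 CPM in M-BSG-Hot and 1.97 ± 0.357 CPM in NC (SD, n = 3 each). Of 33 genes that stand second in a read-through entry, 10 (30.3%) had at most 12 counts over all libraries, against 1913 of 16547 protein-coding genes (11.6%). How reads shared by overlapping genes were counted is not given in the sources used here, so a low SGK3 count cannot be told apart from reads assigned to neither entry, and the SGK3 level is uncertain.

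TSC22D1, the leucine-zipper regulator named for its response to TGF-beta, stood at 139.6, 131 and 135 CPM in BSG. It stood at 131, 141 and 136 CPM in M-BSG and at 135, 130.5 and 132 CPM in M-BSG-Hot. In NC it stood at 108, 113 and 108 CPM. The lowest of the other libraries lay above the highest NC library, so the groups did not overlap with NC, while the 3 other groups overlapped with each other. Groups failed to overlap for 38.7% of all genes in BSG against NC, for 27.5% in M-BSG against NC and for 28% in M-BSG-Hot against NC.

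The means of TSC22D1 were 135 ± 4.27 CPM in BSG, 136 ± 5.06 CPM in M-BSG, 133 ± 2.46 CPM in M-BSG-Hot and 110.0 ± 2.78 CPM in NC (SD, n = 3 each). In BSG against NC the log2 fold change was 0.30 (SE 0.0639, 1.23-fold, edgeR adjusted p = 0.00846). In M-BSG against NC it was 0.30 (SE 0.0639, 1.24-fold, edgeR adjusted p = 0.0101). In M-BSG-Hot against NC it was 0.27 (SE 0.0639, 1.21-fold, edgeR adjusted p = 0.0255). Between the 3 groups the differences were 0.01 for M-BSG against BSG (95% interval -0.13 to 0.14), -0.03 for M-BSG-Hot against BSG (-0.16 to 0.11) and -0.03 for M-BSG-Hot against M-BSG (-0.17 to 0.10).

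Leaving out each library in turn, the TSC22D1 log2 fold change against NC ranged from 0.28 to 0.32 for BSG, from 0.28 to 0.34 for M-BSG and from 0.26 to 0.29 for M-BSG-Hot, while some of its calls were lost. The BSG call was lost without NC 3 (edgeR adjusted p = 0.0516), and the M-BSG call without NC 1 (0.0566), NC 3 (0.0628) or M-BSG 2 (0.0514). The M-BSG-Hot call was lost without NC 1 (edgeR adjusted p = 0.103), NC 2 (0.0732), NC 3 (0.127), M-BSG-Hot 1 (0.0865) or M-BSG-Hot 3 (0.0593). It was also lost with scaling by library size only (edgeR adjusted p = 0.101) and with no filter on low counts (0.0873). With the trend of fold change along gene length removed, the BSG value was 0.54 (edgeR adjusted p = 0.00129). TSC22D1-AS1, annotated antisense to the gene, had 1, 1 and 4 counts in BSG, 0, 4 and 6 in M-BSG, 2, 4 and 4 in M-BSG-Hot and 18, 6 and 11 in NC. Whether counting used strand is not given in the sources used here, so reads of the pair cannot be told apart.

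TSC22D3, the glucocorticoid-induced leucine zipper, stood at 32.8, 27.7 and 27.6 CPM in BSG. It stood at 30.1, 26.0 and 31.6 CPM in M-BSG and at 23.1, 29.3 and 31.7 CPM in M-BSG-Hot. In NC it stood at 32.7, 30.2 and 27.9 CPM. All 4 groups overlapped, with M-BSG-Hot 1 the lowest library and BSG 1 the highest. The log2 fold changes were -0.04 in BSG (95% interval -0.30 to 0.22), -0.05 in M-BSG (-0.31 to 0.21) and -0.11 in M-BSG-Hot against NC (-0.37 to 0.15). Their edgeR adjusted p-values were 0.836, 0.890 and 0.684.

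FKBP5, the feedback co-chaperone of the receptor, stood at 48.4, 56.2 and 57.3 CPM in BSG. It stood at 51.5, 52.8 and 52.8 CPM in M-BSG and at 48.1, 52.2 and 50.4 CPM in M-BSG-Hot. In NC it stood at 57.1, 57.5 and 57.8 CPM. The M-BSG and M-BSG-Hot libraries all lay below the NC libraries, and BSG 3 reached into the NC range. A lack of overlap with NC, in either direction, was seen for 27.5% of all genes in M-BSG and 28% in M-BSG-Hot. The log2 fold change in M-BSG-Hot against NC was -0.19 (95% interval -0.36 to -0.03), with a p of 0.0233 before adjustment and an edgeR adjusted p of 0.199. It was -0.13 in M-BSG (95% interval -0.30 to 0.03, edgeR adjusted p = 0.391) and -0.09 in BSG against NC (-0.25 to 0.07, edgeR adjusted p = 0.432). Per FPKM, the deposited values divided by gene length and library total, FKBP5 was 0.125 to 0.169 of FKBP4, another HSP90 co-chaperone, in BSG. It was 0.141 to 0.156 in M-BSG, 0.127 to 0.155 in M-BSG-Hot and 0.159 to 0.175 in NC. The size of this ratio also depends on the gene lengths behind the FPKM.

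NR3C1, the receptor itself, stood at 44.6, 62.0 and 61.1 CPM in BSG. It stood at 55.4, 70.7 and 64.8 CPM in M-BSG and at 60.3, 55.0 and 49.4 CPM in M-BSG-Hot. In NC it stood at 54.8, 59.3 and 62.4 CPM. The groups overlapped, and the spread within BSG was wider than the distance between the means of BSG and NC. The log2 fold changes were -0.07 in BSG (95% interval -0.35 to 0.20), 0.11 in M-BSG (-0.16 to 0.39) and -0.10 in M-BSG-Hot against NC (-0.38 to 0.17), with edgeR adjusted p-values of 0.726, 0.720 and 0.739.

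**Figure D3:**
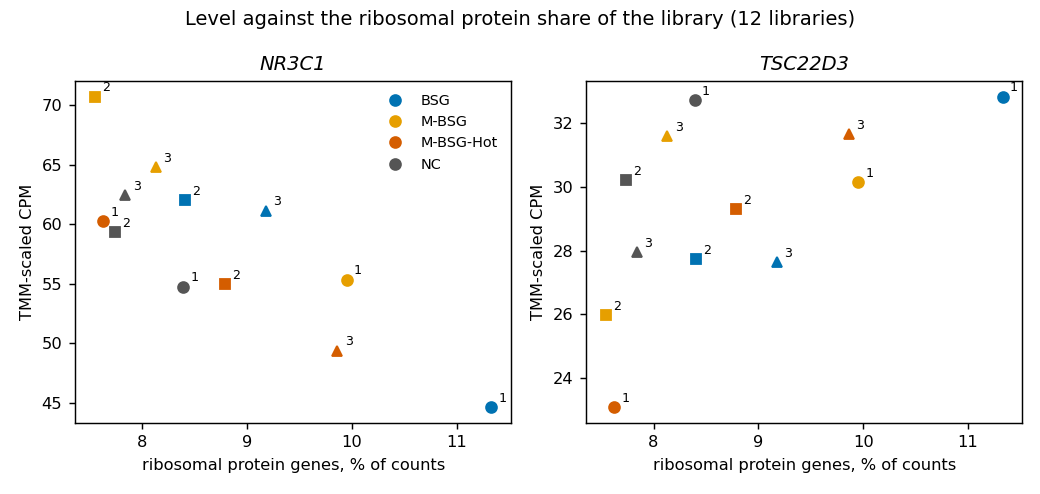
Level of NR3C1 (left) and TSC22D3 (right) in TMM-scaled CPM (y axes) against the percentage of counts in ribosomal protein genes (x axes), 1 point a library, colour for the group and number for the replicate. NR3C1 is lowest in BSG 1, the library with the highest share at 11.3%, and highest in M-BSG 2, with the lowest share at 7.55%.

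NR3C1 and TSC22D3 varied between replicates, and some of their levels are set here beside the make-up of the library. BSG 1, with 11.3% of its counts in ribosomal protein genes, had the lowest NR3C1 and the highest TSC22D3 level of all libraries. M-BSG 2, with 7.55%, had the highest NR3C1 level. TSC22D3 did not follow the share throughout, with 31.6 CPM in M-BSG 3 at 8.13% and 27.6 CPM in BSG 3 at 9.18%. After subtracting group means, the log2 levels of the 2 genes had a Pearson r of -0.80 over the 12 libraries, given as a description, since the libraries share their groups. NR3C1 has the longest implied gene length of the 6 members, 20396 bases, and TSC22D3 the shortest, 3444 bases. With the trend along gene length removed, NR3C1 was 0.25 higher on the log2 scale in BSG than in NC (edgeR adjusted p = 0.00992) and 0.21 higher in M-BSG (0.0285), and FKBP5 was 0.13 higher in BSG. Without the 3 libraries that stood apart NR3C1 was at 0.06 in BSG against NC. The part of library make-up in these differences was not tested.

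Compared per length, the members changed their order. FPKM divides by the implied gene lengths, 20396 bases for NR3C1, 11163 for TSC22D1, 10596 for FKBP5, 3758 for SGK1 and 3444 for TSC22D3. Counts per gene cannot tell which transcripts were present, and FPKM would be too low where these were shorter than the implied length. The order of the genes and the ratios between them thus depend on these lengths. Mean FPKM of SGK1 was 29.6 in BSG, 24.8 in M-BSG, 26.5 in M-BSG-Hot and 10.3 in NC. TSC22D1 stood at 11.9, 12.1 and 11.8 FPKM in BSG, M-BSG and M-BSG-Hot and at 10.2 FPKM in NC. So SGK1 and TSC22D1 had like FPKM in NC, and SGK1 stood above TSC22D1 in the other groups. Mean FPKM lay between 8.03 and 9.11 for TSC22D3, between 4.69 and 5.62 for FKBP5 and between 2.66 and 3.11 for NR3C1 over the groups. The FPKM ratio of SGK1 to TSC22D3 was 3.05 to 3.84 in BSG, 2.69 to 3.35 in M-BSG, 2.87 to 4.14 in M-BSG-Hot and 0.964 to 1.26 in NC. The FPKM ratio of SGK1 to NR3C1 was 10.1 to 13.3 in BSG, 7.29 to 9.14 in M-BSG, 9.07 to 11.7 in M-BSG-Hot and 3.34 to 3.62 in NC.

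The genes whose log2 CPM was most like each member's over the 12 libraries were sought among 10881 genes with at least 5 CPM on average. Pearson r is a description here, as the 12 points share 4 group means. For SGK1 they were ID2 (r 0.98), PLK2 (0.98), RASD1 (0.98) and FOS (0.98). With group means subtracted these r values were 0.19, 0.15, -0.43 and -0.33, so the likeness lay between groups and not among replicates. For TSC22D1 they were SPRY2 (0.98), FBXO32 (0.96), FOS (0.96) and ZNF503 (0.95), with 0.87, 0.89, -0.23 and 0.73 after group means. For NR3C1 they were DPP8, NAV3, EAF1 and FEM1B (r 0.98 each), for FKBP5 LYRM7 (0.93), TMEM182 (0.91), S100PBP (0.90) and IPP (0.90), and for TSC22D3 EXOSC5 (0.88), AIG1 (0.87), CLUAP1 (0.86) and EXOC3-AS1 (0.86). SGK1 and TSC22D1 had an r of 0.95 with each other and 0.27 after group means.

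Genes known to be induced by glucocorticoids, other than the members, moved unevenly. Of 20 tested, 5 were higher and 0 lower in BSG against NC, 7 were higher and 1 lower in M-BSG, and 3 were higher and 0 lower in M-BSG-Hot, where 11.7%, 6.35% and 4.91% of all genes were called. Their median log2 fold changes were 0.30, 0.15 and 0.09, against -0.02, -0.01 and 0.00 over all tested genes. Without the 3 libraries that stood apart, 6 genes were called in BSG, 10 in M-BSG and 5 in M-BSG-Hot. The BSG count was 3 without NC 2, and the M-BSG count was 4 without M-BSG 2, NC 1 or NC 2 and 5 without M-BSG 3 or NC 3. With scaling by library size only, 3 were called in BSG and 5 in M-BSG.

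RASD1, a small GTPase first described as induced by dexamethasone, averaged 21.1 CPM in BSG, 7.74 CPM in M-BSG and 14.8 CPM in M-BSG-Hot, against 0.155 CPM in NC. Its log2 fold changes were 7.08, 5.64 and 6.57 (SE 0.295, 0.308 and 0.298), with edgeR adjusted p-values of 3.9e-09, 9.07e-08 and 1.54e-08, and depend on the prior count, since NC lies close to 3 counts a library. RASD1 was lower in M-BSG than in BSG by a log2 fold change of -1.44 (edgeR adjusted p = 0.00471), a call lost without M-BSG 3 (0.0558) and with limma (0.0628). It was higher in M-BSG-Hot than in M-BSG by 0.93 (edgeR adjusted p = 0.0351), a call lost without M-BSG-Hot 2 (0.114), M-BSG-Hot 3 (0.145), M-BSG 1 (0.0651), M-BSG 3 (0.197), BSG 2 (0.0537), BSG 3 (0.0595) or NC 2 (0.061), with limma (0.194) and when only those 2 groups were fitted (0.131). NFKBIA, the inhibitor of NF-kB, averaged 91.0 CPM in BSG, 76.8 CPM in M-BSG and 51.6 CPM in M-BSG-Hot, against 21.5 CPM in NC. Its log2 fold changes against NC were 2.08, 1.84 and 1.26 (edgeR adjusted p = 4.18e-08, 3.14e-07 and 1.3e-05), and it was lower in M-BSG-Hot than in BSG (-0.82, edgeR adjusted p = 0.00233). NFKBIA was also lower in M-BSG-Hot than in M-BSG (-0.57, edgeR adjusted p = 0.0287), a call lost without M-BSG-Hot 1 (0.120), M-BSG-Hot 2 (0.0819), M-BSG 1 (0.0571), M-BSG 2 (0.081), M-BSG 3 (0.156) or NC 3 (0.0559) and when only those 2 groups were fitted (0.0931). DUSP1, a phosphatase that turns off MAP kinases, was higher by 0.72 in BSG and by 0.72 in M-BSG (edgeR adjusted p = 0.000367 and 0.0005).

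In M-BSG-Hot the DUSP1 value was 0.40 (edgeR adjusted p = 0.0322), a call lost without NC 1 (0.063), NC 2 (0.153), NC 3 (0.130), M-BSG-Hot 2 (0.0696) or M-BSG-Hot 3 (0.117), with library size scaling only (0.0805) and with the length trend removed (0.0561). ANGPTL4, an inhibitor of lipoprotein lipase, was the 1 gene of the list that was lower, in M-BSG, at 1.19 CPM against 2.92 CPM in NC (log2 fold change -1.29, edgeR adjusted p = 0.00323). RASD1, NFKBIA and DUSP1 are also induced by other signals. Whether a steroid or another signal had a part in these differences was not tested.

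The receptor complex and hormone supply list holds the chaperones that carry NR3C1, its coregulators, the related receptor NR3C2 and HSD11B2, the enzyme that inactivates cortisol. Of 18 tested, 3 were higher in BSG, 2 in M-BSG and 0 in M-BSG-Hot, with 0 lower in each, where 5.5%, 3.22% and 1.4% of all genes were called higher. The median log2 fold changes were 0.07, 0.05 and 0.07, against -0.02, -0.01 and 0.00 over all tested genes. HSPA8, a constitutive HSP70 chaperone, was higher by a log2 fold change of 0.45 in BSG (edgeR adjusted p = 0.00164) and 0.37 in M-BSG (0.00822). HSP90AB1, an HSP90 form, was higher by 0.42 in BSG (edgeR adjusted p = 0.00212) and 0.30 in M-BSG (0.0245). The HSPA8 call in M-BSG was lost without NC 2 (0.0515), and that of HSP90AB1 without NC 1, NC 2, NC 3, M-BSG 1 or M-BSG 3, with edgeR adjusted p-values of 0.074 to 0.108. HSP90AA1 was the third in BSG, at 0.23 (edgeR adjusted p = 0.0394), a call lost without NC 1 (0.108), NC 2 (0.118), NC 3 (0.131), BSG 1 (0.0844), BSG 3 (0.0845) or M-BSG 3 (0.0625). That call was also lost with library size scaling only (0.102), no filter (0.0779) or limma (0.0678), and when only BSG and NC were fitted (0.0597). HSPA8 and the HSP90 genes have near-identical pseudogenes whose reads may be shared. With 0 calls in M-BSG-Hot, edgeR's adjusted p was 0.147 for HSPA8 and 0.159 for HSP90AB1, and DESeq2 called 2 genes of the list, limma 0, and edgeR gave 3 at an unadjusted p under 0.05.

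Of 16 tested kinases and phosphatases that act above SGK1, such as PDPK1, MTOR and RICTOR, 1 was called, in BSG, where 11.7% of all genes were. AKT2 was at 72.3 CPM in BSG against 89.3 CPM in NC (log2 fold change -0.30, edgeR adjusted p = 0.0282), a call lost without BSG 1 (0.107), BSG 3 (0.0593), NC 1 (0.078), NC 2 (0.088) or NC 3 (0.096) and when only those 2 groups were fitted (0.0503). With the length trend removed the AKT2 value was -0.14 (edgeR adjusted p = 0.163). Of 18 tested SGK substrates and effectors, 1 was called, the FOXO factor FOXO4, at 7.48 CPM in BSG against 4.16 CPM in NC (log2 fold change 0.84, edgeR adjusted p = 0.00395). For these 2 lists edgeR called 0 genes in the M-BSG and M-BSG-Hot groups, where 6.35% and 4.91% of all genes were called. At an unadjusted p under 0.05 edgeR gave 3 and 1 kinases and 1 and 1 substrates there. DESeq2 called 1 substrate in M-BSG-Hot and no other gene of these lists in those groups, and limma called 0. Without the 3 libraries that stood apart, the kinases gave 2, 1 and 1 called genes and the substrates 1, 4 and 1 in BSG, M-BSG and M-BSG-Hot.

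Of 18 tested genes of the TSC22 family, its partners and TGF-beta feedback, 1 was higher and 1 lower in BSG, 1 higher and 2 lower in M-BSG, and 0 higher and 1 lower in M-BSG-Hot. Over all genes 11.7%, 6.35% and 4.91% were called in these comparisons, and the list's median log2 fold changes were -0.11, 0.00 and -0.00. NRBP2, a pseudokinase of a family that binds TSC22 proteins, averaged 3.20 CPM in BSG, 3.69 CPM in M-BSG and 3.86 CPM in M-BSG-Hot, against 8.46 CPM in NC. Its log2 fold changes were -1.40, -1.20 and -1.13 (edgeR adjusted p = 3.86e-05, 0.000193 and 0.00037). SMAD7, an inhibitor of TGF-beta receptors, was higher by 0.46 in BSG and 0.49 in M-BSG (edgeR adjusted p = 0.0034 for each). In M-BSG-Hot the count was 2 without BSG 1, M-BSG 1 or M-BSG-Hot 1. Without the 3 libraries that stood apart, the list gave 4, 5 and 4 called genes.

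FOXO factors are held in the cytoplasm when SGK or AKT phosphorylates them, and 11 of their known targets were tested. In BSG 5 were higher and 1 lower than in NC, in M-BSG 4 were higher and 1 lower, and in M-BSG-Hot 2 were higher and 0 lower, where 11.7%, 6.35% and 4.91% of all genes were called. The median log2 fold changes were 0.18, 0.39 and -0.01, against -0.02, -0.01 and 0.00 over all tested genes. CITED2, a CBP and p300 binding regulator, averaged 62.6 CPM in BSG, 37.3 CPM in M-BSG and 43.0 CPM in M-BSG-Hot, against 16.3 CPM in NC. Its log2 fold changes were 1.94, 1.20 and 1.40 (edgeR adjusted p = 2.79e-08, 5.93e-06 and 1.37e-06). It was lower in M-BSG than in BSG by -0.75 (edgeR adjusted p = 0.00471), a call lost without M-BSG 3 (0.0568). CITED2 was also called lower in M-BSG-Hot than in BSG (-0.54), a call lost in 3 of 22 alternatives.

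FBXO32, a ubiquitin ligase of muscle wasting, was higher by 0.76 in BSG, 1.03 in M-BSG and 0.73 in M-BSG-Hot (edgeR adjusted p = 0.000184, 1.68e-05 and 0.000402). IRS2, an insulin receptor adaptor, was higher by 0.84 in BSG and 0.83 in M-BSG, and stood at 0.40 in M-BSG-Hot (edgeR adjusted p = 0.000256, 0.000351 and 0.0617). BCL2L11, which encodes the death protein BIM, was higher by 0.70 in BSG and 0.69 in M-BSG (edgeR adjusted p = 0.00536 and 0.00773). In M-BSG-Hot BCL2L11 was at 14.7 CPM against 14.8 CPM in NC. BCL2L11 was called lower in M-BSG-Hot than in BSG (-0.70) and M-BSG (-0.70), calls lost in 9 and 11 of 22 alternatives. M-BSG-Hot had 2 lower genes of the list against BSG and 1 against M-BSG, with 0 higher. Over all genes 0.753% and 0.597% were called lower there. Against NC, the called members of this list gave 4 in M-BSG-Hot without BSG 1, and 7, 8 and 5 in the 3 groups without the 3 libraries that stood apart.

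Of 6 tested genes of the response to hypertonic stress, a known inducer of SGK1, edgeR called 0 in BSG, M-BSG and M-BSG-Hot, as did DESeq2 and limma. Over all genes edgeR called 11.7%, 6.35% and 4.91% there, and 0 among only 6 genes lies near these shares. At an unadjusted p under 0.05 edgeR gave 1, 0 and 1, and without the 3 libraries that stood apart it called 2, 1 and 1. SLC5A3, the myo-inositol carrier, was at 40.4 CPM in BSG against 62.2 CPM in NC (log2 fold change -0.62, edgeR adjusted p = 0.136). SGK1 and genes of several of these lists also answer to serum. Of 18 immediate-early genes, which serum and growth factors switch on within a short time, 14 were higher in BSG, 13 in M-BSG and 10 in M-BSG-Hot, with 0 lower in each, where 5.5%, 3.22% and 1.4% of all genes were called higher. The median log2 fold changes were 0.94, 0.69 and 0.62, against -0.02, -0.01 and 0.00 over all tested genes.

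FOS averaged 300.4 CPM in BSG, 243 CPM in M-BSG and 149 CPM in M-BSG-Hot, against 4.33 CPM in NC. Its log2 fold changes were 6.12, 5.81 and 5.11 (edgeR adjusted p = 2.24e-10, 3.88e-10 and 1.6e-09). FOSB gave 5.50, 5.20 and 3.68, EGR1 2.28, 2.55 and 1.21, and KLF4 1.23, 0.69 and 0.99, all called by edgeR. In M-BSG-Hot against BSG 7 of the 18 genes were lower and 0 higher, where 0.753% of all genes were called lower and 0.0974% higher. SGK1 was at -0.17 there and not called, and FOS was lower by a log2 fold change of -1.01 (edgeR adjusted p = 0.00333). The number called was 2 without BSG 2 or BSG 3, 4 without M-BSG-Hot 1 or M-BSG-Hot 3, and 3 when only those 2 groups were fitted. In M-BSG-Hot against M-BSG 4 were lower and 1 was higher, where 0.597% of all genes were called lower and 0.0974% higher. SGK1 was at 0.11 there and not called. The number called was 2 without M-BSG 3 or M-BSG-Hot 1, 3 without NC 2, NC 3 or M-BSG 2, and 0 when only those 2 groups were fitted, against 9 by DESeq2. FOSB was lower there by -1.52 (edgeR adjusted p = 0.00773) and EGR1 by -1.34 (0.00767), calls lost when only those 2 groups were fitted (0.0627 each). Whether the SGK1 difference and those of the other genes differ from each other was not tested.

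**Figure D4:**
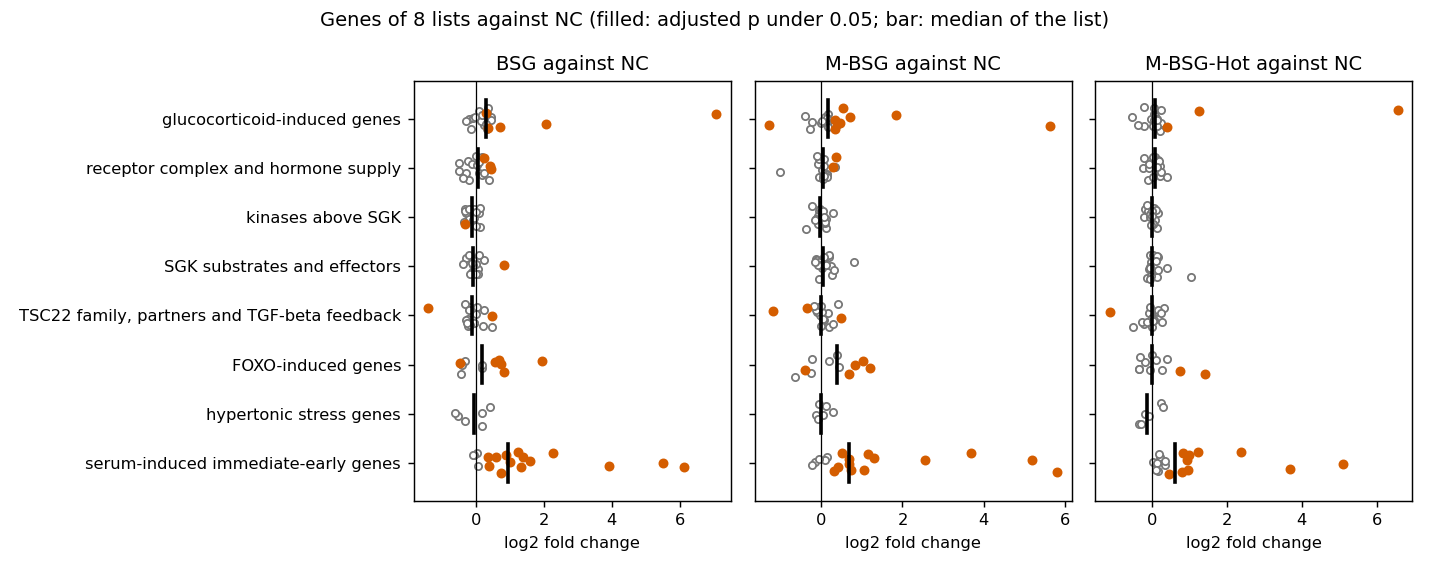
Log2 fold change (x axes) of the tested genes of 8 lists (rows) in 3 panels, BSG, M-BSG and then M-BSG-Hot against NC, with filled points for an adjusted p under 0.05 and a bar at the list's median. The immediate-early genes have medians of 0.94, 0.69 and 0.62, and the medians of the kinases and of the SGK substrates lie near 0.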

How the data were processed

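For each of the 12 samples the authors deposited raw counts by gene symbol and, in another table, FPKM. These deposited FPKM equal the counts divided by a whole-number gene length and the library total, and give the same counts (tolerance 0.001 bases, 230445 values). Per the labels' protocols, RNA was extracted with an RNeasy kit and libraries were made with a SMARTER kit. GRCm38 and mm10, names of a mouse assembly, are listed in the submitters' processing notes, but the symbols are human, so the build is unresolved. Not given in the sources used here are aligner, counter, annotation and strand use.

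edgeR 4.0.16 in R 4.3.3 was run with TMM factors (0.951 to 1.05), filterByExpr with a minimum count of 10, and quasi-likelihood models in which all 12 libraries share 1 spread estimate and each group has a mean, giving 6 comparisons and a test of any difference, with Benjamini-Hochberg adjustment over 15407 genes. An SE and a 95% interval stand on the log2 scale. An exact permutation test of 3 against 3 libraries cannot go below p = 0.1 and was not used. DESeq2 1.42.0 and limma 3.58.1 served as alternatives, and the test was tried on simulated data. The members and gene lists were chosen with earlier results of these data known. Genes named are the members, up to 4 genes of each list with the smallest p across groups, and the 4 genes most like each member. The floor of 3 counts a library covers counting error only, and the intervals rest on edgeR's estimate of the spread between libraries. The log2 levels used a prior count of 2. Replicate chi-square per degree of freedom ran from 3.37 to 60.9, above sampling noise. CAVIN2, SCNN1B and SCNN1G were not analysed here, and NHERF1 was analysed under its older symbol SLC9A3R1. The values of 1 gene that the naming rule chose are not reported here, though it stays in the counts of its list.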

Additional observations from a re-analysis of the deposited data

How the results depend on the processing

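SGK1 kept its direction and its call against NC in all 22 alternatives. Leaving out each library in turn, 1 to 2 members were called against NC in each of the other 3 groups and across the 4 groups, the one lost being TSC22D1. With library size scaling only, and with no filter, 1 member was called in M-BSG-Hot and 1 across groups. Over left-out libraries the genes called numbered 857 to 2556 (BSG), 543 to 1210 (M-BSG), then 388 to 958 (M-BSG-Hot) against NC, 3 to 27 (M-BSG) and 51 to 163 (M-BSG-Hot) against BSG, and 25 to 143 for M-BSG-Hot against M-BSG. DESeq2 called 2810 (BSG) and 1161 genes (M-BSG-Hot) against the NC libraries, 50 (M-BSG) and 391 (M-BSG-Hot) against BSG, and 276 for M-BSG-Hot against M-BSG. With the 3 libraries that stood apart left out, counts were 1972 (M-BSG against NC), 1313 (M-BSG-Hot against NC), 111 (M-BSG) and 260 (M-BSG-Hot) against BSG, and 275 for M-BSG-Hot against M-BSG. With the length trend removed they were 1483 (M-BSG against NC), and for M-BSG-Hot they were 297 against BSG, with 213 against M-BSG. M-BSG against BSG gave 38 with no filter and 8 with at least 10 counts in every library, and fits of only the 2 groups gave 63 for M-BSG-Hot against BSG and, against M-BSG, 10. The cause was not tested.

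Log2 fold changes changed sign only in member differences not called in the report, of which 1, NR3C1 in BSG against NC with the length trend removed, passed the test with its sign turned. With the length trend removed they were FKBP5 0.127 and NR3C1 0.247 (BSG) and NR3C1 0.0596 (M-BSG-Hot) against NC, NR3C1 -0.0332, TSC22D1 -0.169 and TSC22D3 0.0187 (M-BSG against BSG), and TSC22D1 0.00716 (M-BSG-Hot against M-BSG). Without the 3 libraries they were NR3C1 0.0561 (BSG against NC), TSC22D1 0.00418 (M-BSG-Hot against BSG) and TSC22D3 0.0631 (M-BSG against BSG). TSC22D3 in M-BSG against BSG was also 0.0134 with library size scaling only and 0.00667 with no filter. Leaving out 1 library, TSC22D3 ranged from -0.122 to 0.0153 (BSG), -0.110 to 0.0280 (M-BSG), then -0.201 to 0.00999 (M-BSG-Hot) against NC, -0.0671 to 0.0824 (M-BSG) and -0.170 to 0.0531 (M-BSG-Hot) against BSG, and -0.161 to 0.0604 for M-BSG-Hot against M-BSG. NR3C1 ranged from -0.153 to 0.0736 in BSG against NC and -0.164 to 0.0536 in M-BSG-Hot against BSG. In M-BSG against BSG, TSC22D1 ranged from -0.0207 to 0.0335 and FKBP5 from -0.111 to 0.00273.

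The replicate numbers did not pair the libraries throughout: 4 of 18 same-number pairs had a correlation over 0.1, and 5 of 12 libraries correlated best with their own number. Same-number correlations ran from -0.29 (M-BSG 1 with M-BSG-Hot 1) to 0.41 (BSG 1 with M-BSG 1). Whether some of the groups shared a batch was not tested. With the replicate block 2 members were called in each group against NC and 2 across groups, and 2100, 948 and 720 genes were called in BSG, in M-BSG and in M-BSG-Hot. The alternatives for list counts, list genes and markers were chosen after seeing the data.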
